A study of Drosophila melanogaster with 6 samples.

Results

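Ir85a and Ir21a are ionotropic receptor genes of the fruit fly, and each was taken as the row of the authors' deposited table whose gene field holds that symbol. The table held 8164 gene rows, and 2 of them, 1 for each gene, met this rule. Both genes were singled out after their deposited fold changes and adjusted p-values were known, so these values are a description of the pair and support nothing. Ir85a had a positive log2 fold change between young and old flies at a mean of 17.8 CPM (read counts scaled to library size), and Ir21a a negative one at 1.87 CPM. The row of Ir85a lies wholly inside a row of the opposite strand with nearly the same fold change, and Ir21a is covered over most of its coding sequence by an antisense RNA in a later annotation.

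Ionotropic receptors (IRs) are a family of ligand-gated or temperature- and humidity-gated membrane channels that descend from ionotropic glutamate receptors. A specific, tuning receptor works in a complex with broadly expressed co-receptors, of which Ir8a, Ir25a, Ir76b and Ir93a are the known ones. Most members are known from sensory neurons of the antenna, the taste organs and the larval head. Ir21a is known as a cooling receptor that works with Ir25a and Ir93a in thermosensory neurons. No role of Ir85a is given here.

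The samples were midgut cells enriched for intestinal stem cells, sorted from 3 batches of young flies of 6 to 8 days and 3 batches of old flies of 59 to 65 days. All flies carried yw, the driver esg-GAL4 NP5130, UAS-GFP and UAS-GFPnlacZ (N 1099). No group without the driver is among them, and escargot-GAL4 labels the stem cells together with their immediate daughters. The question was which transcripts of this population differ between the ages. The sources used here do not state which age is the numerator of the deposited fold change, and no label ties a library column to an age. Each difference below therefore has a sign and no age direction, and values and depth per library are not given here. The deposited comparison has no standard error.

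Markers of the sorted and of other cell types were looked up in the same table. The stem cell and daughter markers esg, Dl and Sox21a were all present, at means of 26.5 to 835 CPM, and none was called. In what follows, called means a deposited adjusted p under 0.05. Of 4 enteroendocrine markers, Ast-C and npf were called positive, pros and Tk were not called, and their log2 fold changes ran from 0.63 to 2.78 in the authors' deposited table. Of 3 enterocyte markers 1 was called positive, CG31004, which encodes the junction protein Mesh. All 3 visceral muscle markers were called positive, with log2 fold changes of 1.16 to 2.51 in the authors' deposited table, although sls and Zasp66 are uncertain, the former as a row of near-equal values described below and the latter as a row that overlaps another. The mean CPM of each marker list, summed, was 1049 for the progenitors, 313 for the enteroendocrine cells and 526 for the enterocytes. Of these, esg made up 835 of the progenitor sum and Myo31DF 495 of the enterocyte sum. For visceral muscle the sum was 14126, of which sls made up 14122. Sums over different genes do not compare the amounts of these cell types. The lists are also short and do not stand for every gene of a cell type. Outside them, the neuropeptide genes sNPF (-1.90) and Ast (2.12) were called with opposite signs of log2 fold change in the authors' deposited table. So were the digestive protease genes Jon25Bi (-1.94) and Jon65Aiii (1.05). The muscle genes zormin (-1.67) and Act79B (-1.68) were called negative there. The part of these other cell types in the values of Ir85a and Ir21a was not tested. In sorted bulk samples, fewer cells of a type and less RNA per cell cannot be told apart.

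Ir85a (FBgn0037630) lies on 3R from 4620406 to 4622367 of the dm3 build, on the plus strand. The authors' deposited table gave it 2.89 on the log2 scale, or 7.39-fold, and an adjusted p of 2.88e-12. By p-value it ranked 19 of 8164 rows, and by log2 fold change 25 from the top. No other row lay within 0.1 of it in both log2 fold change and log2 CPM. Positive calls made up 5.17% of all rows and 3.03% of the 1384 rows within 0.5 log2 CPM of Ir85a, where negative calls made up 1.52%. Since the gene was chosen from this comparison, nothing is read from its place against those shares.

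Ir21a (FBgn0031209) lies on 2L from 21919 to 25151 of dm3, on the minus strand, near the end of the arm. Its log2 fold change in the authors' deposited table, -1.52, was 2.87-fold in size and opposite in sign to that of Ir85a (adjusted p = 0.00189). It ranked 277 by p-value and 54 from the bottom by log2 fold change. Negative calls made up 1.94% of all rows and 2.8% of the 715 rows within 0.5 log2 CPM of Ir21a, where positive calls made up 13.8%. Nothing is read from the place of Ir21a against those shares either.

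**Figure D1:**
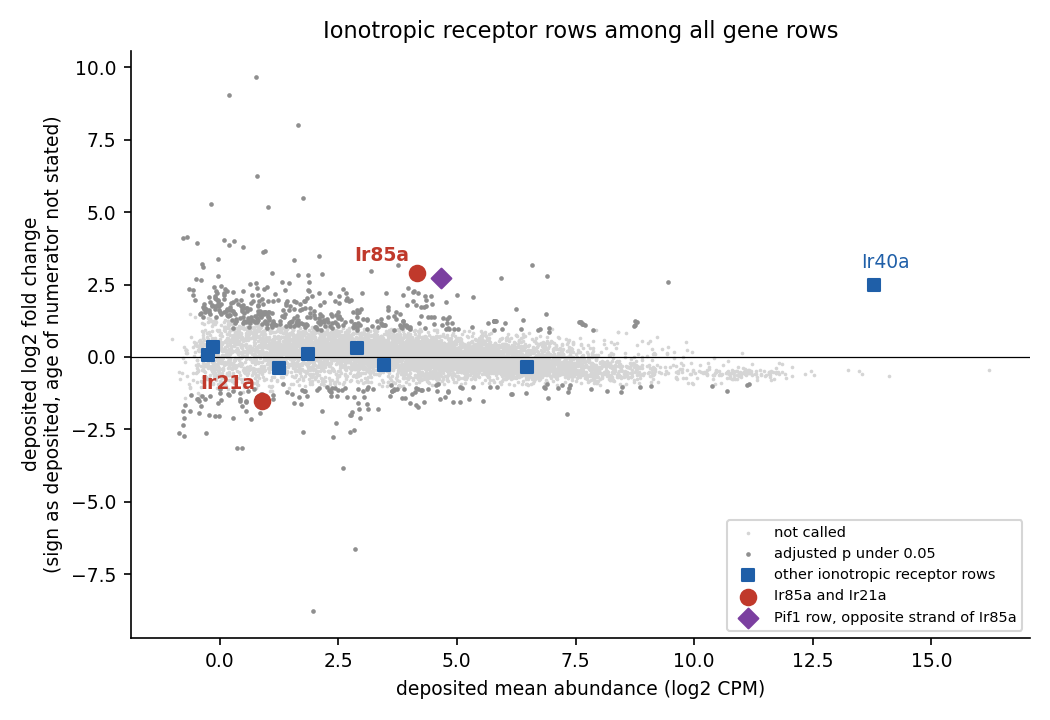
Deposited log2 fold change between the ages (vertical axis) against deposited mean abundance in log2 CPM (horizontal axis) for all 8164 gene rows, with called rows in dark grey. Ir85a stands at 2.89 next to the Pif1 row at 2.74, Ir21a at -1.52, Ir40a at 2.50 far to the right, and the other ionotropic receptor rows lie close to 0.

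Compared per length, the row of Ir85a was the more abundant of the pair. On the scale of mean CPM per kilobase of coding sequence, with coding lengths from the BDGP6 annotation, Ir85a had a level of 9.80 and Ir21a a level of 0.738, a ratio of 13.3. Among the 7 ionotropic receptor rows that name a single gene and are not among the near-equal rows, Ir85a ranked 1 and Ir21a 5. Ir41a, known as an olfactory receptor for polyamines, had 5.71, Ir51b 2.02 and the co-receptor gene Ir93a 0.914. Below Ir21a stood Ir76a at 0.465 and Ir7g at 0.464, which cannot be told from each other at the precision given. This order rests on the choice of length, since the sources used here do not say whether reads in introns were counted. Per kilobase of span, introns included, Ir85a stayed at rank 1 with a level of 9.08 CPM, Ir21a had 0.578 CPM and rank 3, and Ir41a, whose span is 72289 bases, had 0.154 CPM and the last rank, 7. These levels are means over both ages with no spread between libraries, so whether neighbours in this order differ was not tested. As the library kit does not mark strand, a level may also hold reads of an overlapping gene. Such genes are given below for Ir85a and Ir21a, and the row of Ir51b also lies inside another row. The order is therefore one of rows and not of receptor genes alone.

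In the table, 310 of the 311 rows that lie wholly inside another row were no more abundant than the row around them, and Ir85a was among the 310. Its container is a single row for the 4 genes Pif1A, Pif1B, CG33191 and CG33189, of which the first pair encode PFTAIRE-interacting factors, named for binding the cyclin-dependent kinase relative PFTAIRE. This row runs on the minus strand of 3R from 4600008 to 4625666 of dm3, and all 1962 bases of the Ir85a span lie in it. For the Pif1 row the authors' deposited table gave 2.74 on the log2 scale (adjusted p = 1.31e-11) and a mean abundance of 25.5 CPM. The log2 fold change of Ir85a was higher by 0.15. The mean CPM of Ir85a was 69.9% of that of the Pif1 row, while its span was 7.65% of the span of that row. Per kilobase of span, the mean level was 9.08 CPM for Ir85a and 0.994 CPM for the whole Pif1 row. The library kit named in the labels' protocols does not mark strand, so reads of Ir85a and of the Pif1 genes in the shared stretch cannot be told apart. The sources used here do not say whether reads of the Ir85a span also entered the value of the Pif1 row. If they did, the level and fold change of the Pif1 row hold those of Ir85a in part, which was not tested.

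The 3 nearest rows on each side of Ir85a that do not overlap it were not called. CG8223, CG34135 and CG11768 on one side had log2 fold changes of 0.01, 0.04 and -0.04 in the authors' deposited table. On the other side the chaperonin subunit gene Tcp-1eta had 0.04, CG9839 had 0.23 and CG8359 had -0.42 in the authors' deposited table. The smallest adjusted p among these 6 was 0.561. Calls made up 7.1% of all rows, and Ir85a was chosen for its fold change, so nothing is read from these 6 uncalled rows.

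Around Ir21a no measured row was called either. The tumour suppressor gene l(2)gl, which keeps epithelial and neuroblast polarity, ends 546 bases away and stood at -0.56 on the log2 scale in the authors' deposited table. Cda5, a chitin deacetylase family gene, begins 250 bases away on the other side and had -0.38 in the authors' deposited table. Farther out, dbr had 0.01 and galectin -0.04, and no adjusted p of these 4 rows in the authors' deposited table was below 0.425. The row of Ir21a overlapped no other row. Its log2 fold change was lower than that of l(2)gl by 0.96 and lower than that of Cda5 by 1.14, differences between rows that were not tested. As 7.1% of all rows were called and Ir21a was chosen for its value, nothing is read from the 4 uncalled rows.

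**Figure D2:**
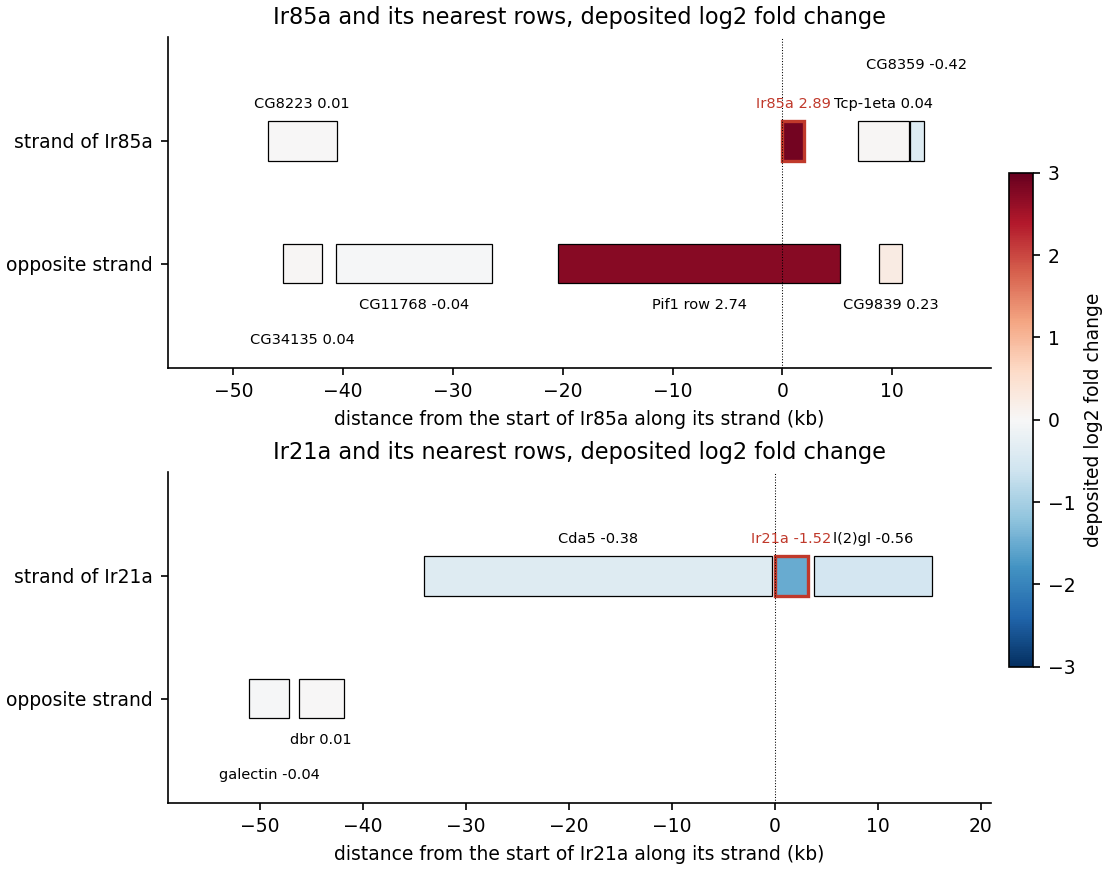
Spans of Ir85a (top, red outline) and Ir21a (bottom, red outline) with the rows that overlap them and the nearest rows on each side, by distance in kilobases from the start of the receptor gene along its strand; colour and number give the deposited log2 fold change. The Pif1 row, at 2.74, holds the whole span of Ir85a, and the nearest rows of both genes lie between -0.56 and 0.23.

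The gene models bear on what each row could count. In the BDGP6 annotation, Ir85a has 1 transcript of 3 exons with 1818 coding bases, which encode 605 residues, and a 3' UTR of 321 bases. The span in the table, 1962 bases, equals the distance from start codon to stop codon in BDGP6, so the 3' UTR lies outside the row. Of 12 BDGP6 transcripts of the 4 genes in the Pif1 row, 6 run across Ir85a from the opposite strand, and none of those 6 is among the 8 transcripts listed for the row. Of these 8, 3 have no match in BDGP6, so their exons are not known here. The 5 with a match end before Ir85a begins, counted along its strand, while the row runs past its end. At least 1 unmatched transcript listed for the row therefore appears to reach past Ir85a. The 6 crossing transcripts share 232 exon bases with Ir85a, 10.8% of its exon bases. All 232 lie in the 3' UTR, and 0 of the 1818 coding bases are shared. By these models, the part of Ir85a counted in the table lies within an intron of Pif1A and Pif1B.

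Ir21a has 1 BDGP6 transcript of 5 exons with 2529 coding bases, which encode 842 residues. Its span in the table, 3233 bases, also equals the distance from start codon to stop codon. On the opposite strand BDGP6 places the noncoding gene asRNA:CR43609 (FBgn0263584), whose exons share 2087 bases with those of Ir21a. This is 82.5% of the coding bases of the receptor gene. No row of the table matched asRNA:CR43609, and it was not analysed here. An INE-1 transposable element, also on the opposite strand, shared no exon base with Ir21a. Without strand, reads of Ir21a and of this antisense RNA cannot be told apart, and the share of either in the deposited value is not known.

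**Figure D3:**
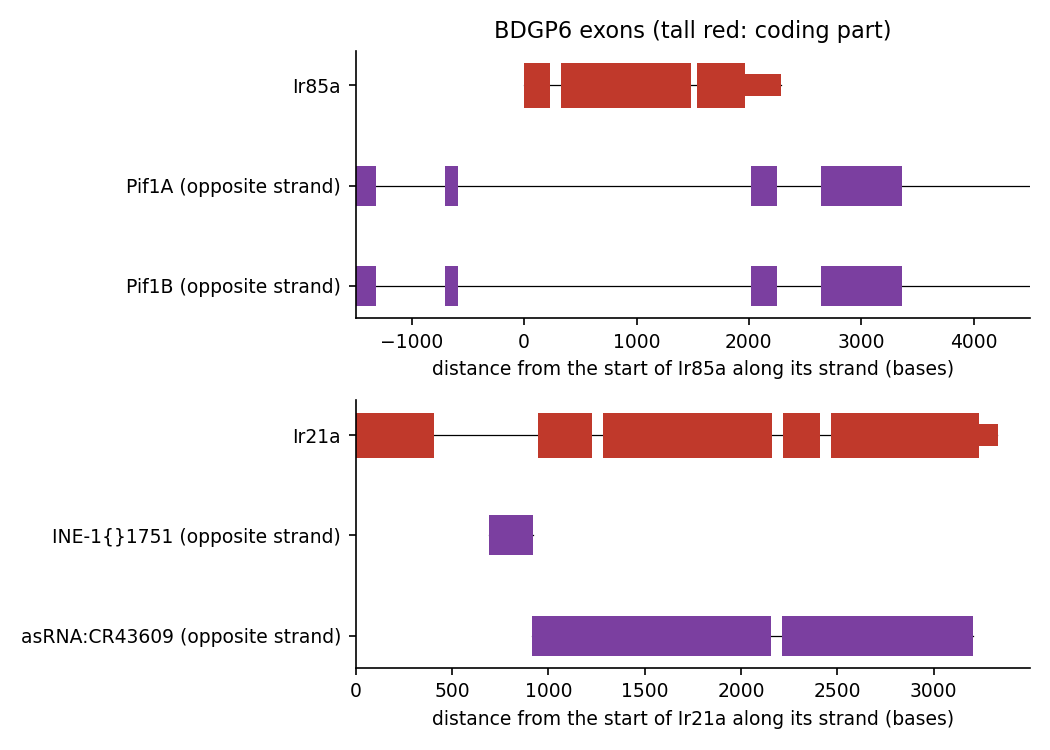
Exons in the BDGP6 annotation around Ir85a (top, with the Pif1A and Pif1B transcripts that cross it) and Ir21a (bottom), by distance in bases from the start of each receptor gene along its strand; tall red boxes are coding and low red boxes untranslated parts. The Pif1 exon meets Ir85a in the 3' UTR alone, with 232 shared bases, whereas asRNA:CR43609 covers 2087 bases of Ir21a exons.

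The pair of Ir85a and the Pif1 row was set beside all such pairs in the table. Spans overlapped in 1333 pairs of rows, and in 0 of these were both rows on the same strand. In 311 pairs the span of a row lay wholly inside that of the other. The 1 exception to the order of abundance was CG13539, inside CG34371. Its log2 fold change of -0.99 and log2 CPM of 3.78 nearly equal those of many other rows, such as twi and ord. The value of CG13539 is therefore uncertain as a measure of that gene. The order also held in 209 of 210 pairs whose exons share no base in BDGP6. The Ir85a pair is among the 52 that share some, but only by 3' UTR bases that lie outside the row of Ir85a. Among 6888 neighbouring rows that do not overlap, the longer was at least as abundant in 62.7%.

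Fold changes of such pairs were also compared. If reads of a shared stretch count for both rows, the value of the container holds that of the contained row. Alike fold changes are then partly built in, and this was not tested. The median absolute difference in log2 fold change was 0.21 over the 311 contained pairs, 0.15 over the 52 that share exon bases, and 0.44 over the neighbouring rows that do not overlap. The 0.15 between Ir85a and the Pif1 row was reached or undercut in 127 of the 311 pairs, that pair included. Across the 311 pairs, which come from the same libraries and are not independent, Pearson's r of the log2 fold changes was 0.60, and 0.58 without the Ir85a pair, which was chosen for its fold change. Over the 52 pairs with shared exon bases r was 0.89, and without the Ir85a pair it was 0.77. It was 0.55 over the 210 pairs without shared exon bases, which do not hold the Ir85a pair. For the remaining 49 pairs, whose exon models were not matched, r was 0.77 and the median absolute difference was 0.27. Of the 22 contained rows other than Ir85a that were called positive, 7 had a container called positive, or 31.8%, against 1 of the 274 contained rows that were not called.

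**Figure D4:**
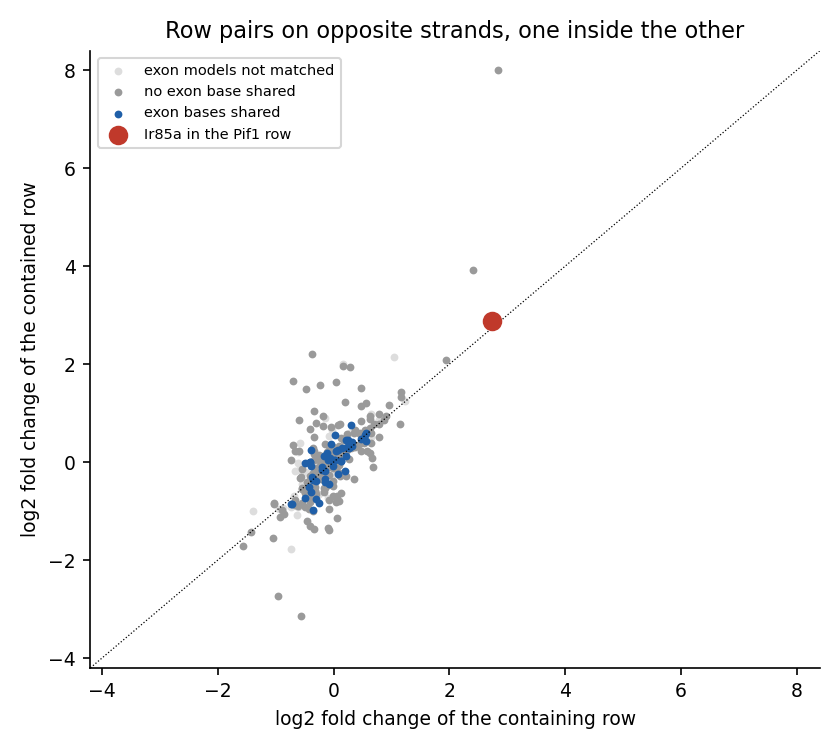
Deposited log2 fold change of a row (vertical axis) against that of the opposite-strand row around it (horizontal axis) for the 311 contained pairs, coloured by whether their BDGP6 exons share bases; the dotted line marks equality. Ir85a and the Pif1 row, at 2.89 and 2.74, lie next to the line and far from the bulk of pairs.

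Large positive values in contained rows did not always come with a like value in the container. The gene hug, which encodes the neuropeptide precursor of hugin, had 8.00 in the authors' deposited table inside the octopamine receptor gene Octbeta3R at 2.84. Octbeta3R was called positive too (adjusted p = 8.35e-11 in the authors' deposited table). Likewise CG6867 had 3.92 inside a row of Sh and CG12672 at 2.41, and both rows were called positive. Snmp, a CD36-type membrane protein gene that serves pheromone sensing in olfactory neurons, had 2.21 at a mean of 8.02 CPM. Its container, a row of SNF4Agamma and CG5810, stood at -0.37 in the authors' deposited table (adjusted p = 0.645). CG13117 inside Nckx30C was nearer to the Ir85a case, with 2.09 against 1.94 in the authors' deposited table, both called positive. CG14526 had 2.15 and CG3739 had 2.01, inside rows at 1.05 and 0.16 that were not called. Most of these contained rows were scarce. Deposited log2 CPM was -0.22 for CG13117, -0.48 for CG6867, 0.10 for CG14526, -0.08 for CG3739 and 1.65 for hug, against 4.15 for Ir85a.

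In the rest of the family only Ir40a was called, and its value is uncertain, as described below. BDGP6 names 66 ionotropic receptor genes of this naming pattern, and 10 rows of the table held a member. Of these 10 rows 2 were called positive, Ir85a and Ir40a, 1 was called negative, Ir21a, and 7 were not called. Calls made up 7.1% of all rows, and as Ir85a and Ir21a were chosen for theirs, the family count is no evidence about the family. The median log2 fold change of the 10 rows was 0.09, against 0.05 over all rows.

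Ir40a, known as a humidity receptor, stood at 2.50 on the log2 scale in the authors' deposited table (adjusted p = 5.37e-12), with 14154 CPM as its mean abundance. A further 12 rows on several chromosome arms, among them sls, Snap25 and rut, lay within 0.1 of it in both log2 fold change and log2 CPM, and all 13 were called positive. The value of Ir40a is therefore uncertain as a measure of that gene. Ir85a and Ir21a had 0 such rows.

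The 7 other family rows had log2 fold changes from -0.37 to 0.34, adjusted p-values of at least 0.524 and means of 0.847 to 89.5 CPM in the authors' deposited table. None of them had an unadjusted p under 0.05, a count of 0. In the authors' deposited table an unadjusted p of 0.0376, that of nub, ranked 1387 of 8164 rows. That of Sox21a, 0.0562, ranked 1639. The count of all rows under 0.05 lies between these ranks, and nothing is read from the count of 0. The co-receptor gene Ir93a, the partner of Ir21a in cool sensing, averaged 2.38 CPM and stood at -0.37 in the authors' deposited table (adjusted p = 0.524). It shared the sign of Ir21a, and whether the log2 fold changes differ was not tested. Of the 4 co-receptors only Ir93a was measured, and Ir8a, Ir25a and Ir76b were not analysed here. The olfactory receptor gene Ir76a had 0.34, Ir41a -0.27, Ir51b 0.11 and Ir7g 0.08 in the authors' deposited table. Ir62a shared its row with CG12090 and Ir75d with CG14077, and these rows had -0.36 and 0.30 in the authors' deposited table, so neither value belongs to a receptor gene alone.

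Related channel and receptor genes were taken as lists. None of 4 rows of ionotropic glutamate receptors, the relatives from which the family descends, was called, and 0 had an unadjusted p under 0.05. Their log2 fold changes ran from -0.68 for the NMDA receptor subunit gene Nmdar1 to 0.41 for CG11155 in the authors' deposited table. Of 6 rows of TRP channels, none was called and 2 had an unadjusted p under 0.05. These were iav, a hearing channel gene, at -0.92 (adjusted p = 0.0616), and the warmth and irritant channel gene TrpA1, at 0.65 (adjusted p = 0.157), both in the authors' deposited table. The temperature and pain channel gene pain stood at -0.55 there (adjusted p = 0.405 in the authors' deposited table).

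Among 26 rows of gustatory, odorant and pickpocket receptors, 1 was called positive and none negative. The call was CG13278, whose transcript belongs to the pickpocket channel gene ppk17 in BDGP6, at 2.85 on the log2 scale and 4.48 CPM on average in the authors' deposited table (adjusted p = 1.27e-10). Unlike that of Ir85a, its row overlapped no other. The sign was negative in 19 of the 26 rows, and the median of all 26 was -0.47, against 0.05 over all rows. An unadjusted p under 0.05 was found in 7 of them. Over all 8164 rows that count lies between 1387 and 1639, by the ranks of nub and Sox21a given above. Of the 26 rows 3 name several genes, so their values do not belong to a receptor gene alone. Nothing is read from these counts, nor from those of the lists above. The sugar receptor gene Gr43a, a fructose sensor, stood at 0.32 (adjusted p = 0.734) and the carbon dioxide receptor gene Gr63a at -0.94 (adjusted p = 0.122), both in the authors' deposited table. Of 9 rows of odorant binding and membrane proteins, Snmp was the only call (adjusted p = 1.5e-08 in the authors' deposited table). Over all 55 rows of these lists 5 were called, of which Ir85a and Ir21a were chosen for their calls. Without these, 3 of 53 rows were called, or 5.66%, against 7.1% of all rows, and 1 of the 3 is the uncertain Ir40a.

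**Figure D5:**
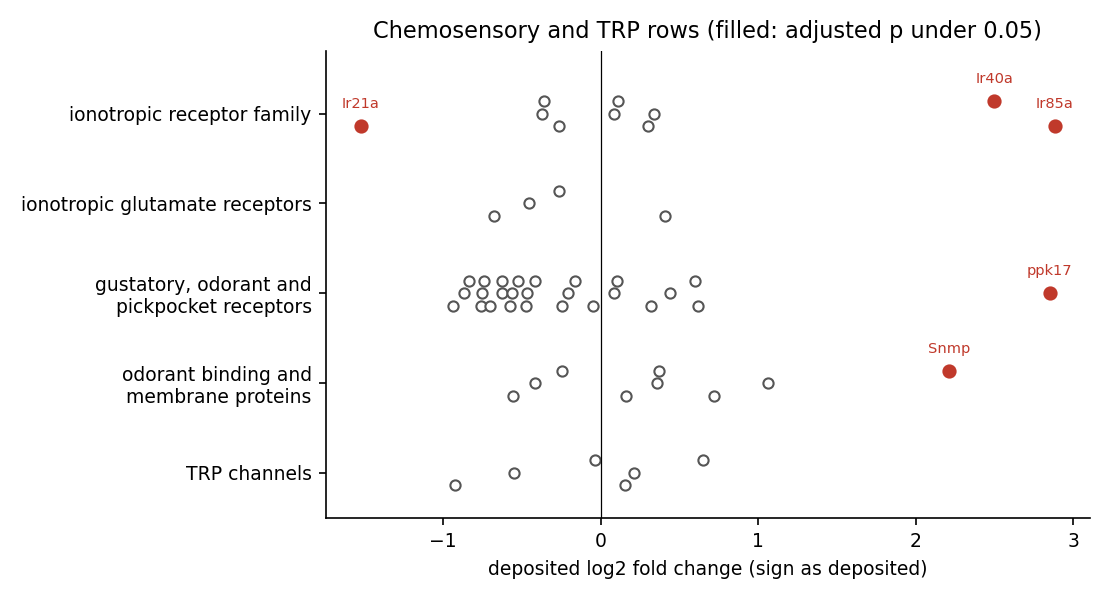
Deposited log2 fold change (horizontal axis) of each measured row of the ionotropic receptor family and of 4 further chemosensory and channel lists; filled points were called, open points were not, and small vertical offsets only separate the points. Ir85a, Ir40a, ppk17 and Snmp lie at 2.21 or above, Ir21a at -1.52, and the open points between -0.94 and 1.06.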

How the data were processed

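RNA of 6 sorted midgut cell samples was sequenced, 3 batches for each age, from libraries made with the TruSeq RNA kit per the labels' protocols. The submitters' processing notes list TopHat 1.2.0, Bowtie, edgeR and FastQC beside the build dm3, without saying what each was used for. Per the file headers, the authors deposited 4 values for each gene row, namely log2 fold change, log2 CPM as its mean abundance, p-value and adjusted p-value. A second deposited table repeats the 580 rows below 0.05 in the last of these. That adjusted p equals a Benjamini-Hochberg adjustment over 8164 rows to within 2.56e-15. A further 12 columns, 6 of counts and 6 of CPM, are named for libraries, and these names match no sample label. They entered no computation, so the planned test on counts was not run, no comparison over libraries was made, and depth per library and any interval that needs it are not given. Values of both genes in those columns had been seen before the choices below were made. The deposited p-value reflects the spread among batches as the authors modelled it.

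Starts in the table count from 0. Of 4737 rows with a single transcript in BDGP6, end minus start equalled its length in 539, against 138 for that difference plus 1. Coordinates are printed counting from 1. Overlap means at least 1 shared base of spans. Ensembl release 115 (BDGP6) gave current names, coding lengths and exons, with no coordinates carried between builds, and 7726 rows (94.6%) matched at least 1 transcript. Exon sharing used all BDGP6 transcripts of the genes in a row. Mean CPM is the antilog of the deposited log2 CPM. Sequences of both genes are not shown. Named were Ir85a and Ir21a, rows overlapping them, the 3 nearest rows on each side, measured family members, called rows of the lists and further rows of the glutamate receptor and TRP lists. Octbeta3R, hug, CG6867, Sh, CG12672, CG13117, Nckx30C, CG14526, CG3739, CG13539, CG34371, Gr43a, Gr63a and the near-equal rows were picked after their values were seen. So were twi, ord, sNPF, Ast, Jon25Bi, Jon65Aiii, zormin and Act79B. Members and lists were chosen with earlier results of these data known. Adjustment, span overlap and base counting were tested on simulated data. Computation used matplotlib 3.10.9, scipy 1.17.1, pandas 2.3.3 and numpy 2.4.6 under Python 3.11.15.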

Additional observations from a re-analysis of the deposited data

How the results depend on the processing

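Ir85a and Ir21a stayed called at a threshold of 0.01, after adjustment over the 7853 rows with a mean of at least 1 CPM, and, as alternatives chosen after seeing the data, over the 7575 rows naming a single gene and without the 13 near-equal rows. Adjusted p-values ran from 2.77e-12 to 2.88e-12 for Ir85a and, with the adjustment over 5664 rows that overlap no other included, from 0.00157 to 0.00209 for Ir21a. That last adjustment gives no value for Ir85a, whose row overlaps the Pif1 row. All of these reuse the deposited p-values, which were known when both genes were chosen, and test no step of the processing. A threshold of 0.01 left 376 called rows in place of 580. Without the near-equal rows, and likewise among rows that overlap no other, the family had 2 calls in place of 3. Another normalization, no filter on low counts and leaving out replicates were not run. They need library values tied to the ages, and the names of the deposited library columns match no sample label. No paired analysis was possible because no column used carries a replicate number. Which library, if any, sets a value was therefore not tested. Levels per span, and values without the Ir85a pair or without both chosen genes, were likewise chosen after seeing the data.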
